A study of Mus musculus with 2 samples.

Results

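High-insulin cells were islet cells of mouse pancreas in which the 2 insulin genes, Ins1 and Ins2, together held at least 30% of the transcripts and in which none of the other islet hormone genes, Gcg (glucagon), Sst (somatostatin) and Ppy (pancreatic polypeptide), reached 1%. They numbered 317 of 1483 cells, 151 in library 1 and 166 in library 2. All cells came from control islets of C57BL/6J mice aged 8 weeks, freed from the pancreas with collagenase, picked by hand and dissociated with trypsin. RNA was profiled by RevGel-seq, in which each cell is chemically coupled to a barcoded bead and the pairs are kept apart in a gel. The methods describe the 2 libraries as technical replicates of 1 islet preparation with an input of 10000 cells each, so no error or p-value here measures the spread between animals. SDs, standard errors and p-values rest on the spread between libraries of the same islets. The intervals of shares and of pooled ratios cover counting error only. Transcripts were counted as unique molecular identifiers (UMIs), and levels are given as CPM, the UMIs of a gene per 1000000 UMIs that were not from the 5 hormone genes Ins1, Ins2, Gcg, Sst and Ppy.

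Beta cells sense blood glucose and release insulin. Glucose enters through the transporter Slc2a2 and is metabolized, and the resulting rise in ATP closes potassium channels, depolarizes the membrane and opens calcium channels, so that insulin granules fuse with the plasma membrane. Insulin is made as proinsulin, folded in the endoplasmic reticulum with oxidative enzymes, cut by prohormone convertases and packed with zinc. In the mouse, the transcription factor Mafa and the peptide Ucn3 mark mature beta cells.

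The comparison classes were the other cells with a single hormone. They were 55 low-insulin cells (insulin from 1% to below 30%, the other hormones below 1%), 356 glucagon-only, 58 somatostatin-only and 122 pancreatic polypeptide-only cells. High-insulin cells made up 20.5% of the cells of library 1 (95% exact binomial interval 17.7 to 23.6) and 22.2% of those of library 2 (19.3 to 25.3), a mean of 21.4% ± 1.17 (SD, n = 2 libraries). These intervals cover counting error only. The libraries held 15931154 and 17440292 UMIs in 735 and 748 cells, with medians of 17340 and 18922 UMIs per cell and 0 barcodes in common. A doublet caller marked 16 cells, 0 of which were in the single-hormone classes.

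The insulin and hormone shares chose these cells and are given as a description. In library 1 the insulin share of high-insulin cells ran from 30.1% to 64.0% with a median of 40.8%. In library 2 it ran from 30.1% to 72.8% with a median of 43.2%. The highest shares outside the threshold were 29.9% and 29.6%, so the threshold passed through a continuous range of insulin shares and not through a gap. Most insulin transcripts came from Ins2, with a median of 34.4% and 37.2% of all UMIs in the respective libraries, against 5.83% and 6.31% from Ins1. Ins1 supplied a median of 14.3% and 14.4% of the insulin transcripts. Of 329 cells past the insulin minimum, 12 held another hormone at 1% or more and were not counted as members. The medians of the other hormones in high-insulin cells were 0.0752% and 0.0731% for Gcg, 0.0128% and 0.0114% for Sst, and 0.0610% and 0.0679% for Ppy. Levels in CPM, summed over cells, were also set against those of the cells named for each hormone. They were 0.435% and 0.382% of these for Gcg, 0.283% and 0.214% for Sst, and 0.230% in both libraries for Ppy.

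**Figure D1:**
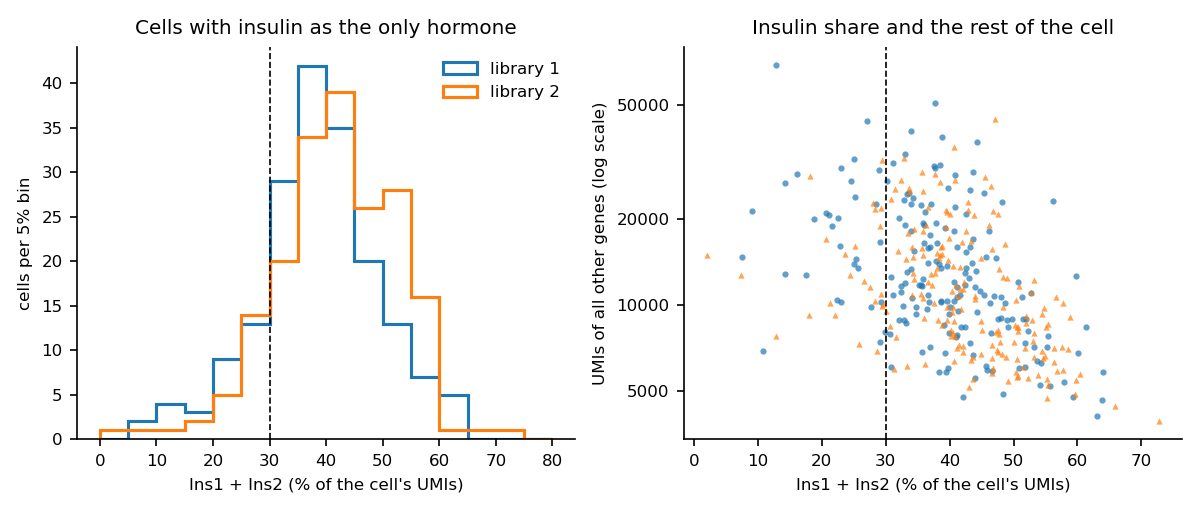
Cells with insulin as the only hormone, by library. The left panel counts cells per 5% of insulin share (Ins1 and Ins2, percent of a cell's UMIs) and the right panel plots the UMIs of all other genes (log axis) against that share, with the 30% threshold dashed. Shares of high-insulin cells ran up to 64.0% in library 1 and 72.8% in library 2, and cells lay closely on both sides of the threshold.

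The depth of high-insulin cells differed from that of the other classes once hormone transcripts were set aside. Their median was 18996 and 18538 UMIs in total, but 11010 and 9800 UMIs outside the hormone genes. Glucagon-only cells had medians of 16414 and 19534 in total and 12693 and 14560 outside the hormones. When every cell was thinned to 3000 non-hormone UMIs, high-insulin cells showed a median of 1794 and 1792 genes (mean 1793 ± 1.41, SD, n = 2). Glucagon-only cells then showed 1.42% ± 0.157 more genes, low-insulin cells 2.18% ± 1.03 more, pancreatic polypeptide-only cells 2.66% ± 0.850 more and somatostatin-only cells 5.08% ± 0.233 more (SD, n = 2). Without thinning the mean excess of these classes was between 13.2% and 47.0%. Transcripts of the mitochondrial genome summed to 6601 and 6261 CPM in high-insulin cells. They were more abundant in low-insulin cells (7519 and 7361 CPM), glucagon-only cells (7365 and 7559 CPM) and pancreatic polypeptide-only cells (9966 and 9851 CPM), and less so in somatostatin-only cells (4639 and 4831 CPM).

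The defining markers of beta cells other than insulin were checked next. These 4 genes were Mafa, Ucn3, G6pc2 (a glucose-6-phosphatase of the beta cell) and Slc2a2, and their summed level was 5166 and 4949.8 CPM in high-insulin cells. It was 1295 and 1242 CPM in low-insulin cells and at most 38.7 CPM in any sum of the other-hormone classes. Mafa, on chr15:75745490-75748228 (GRCm38, GENCODE M21), was detected in 98.0% and 96.4% of high-insulin cells, and in 1.65% and 5.17% of glucagon-only cells, whose share served as the background. Ucn3, on chr13:3940688-3945349, was detected in 90.1% and 89.8% of high-insulin cells against 3.30% and 3.45% of glucagon-only cells. These beta cell genes, which the rule had not used, were thus detected in at least 89.8% of the members of each library. Markers of other cell types had sums in high-insulin cells of 369 and 449 CPM for ductal cells, 43.4 and 5.93 CPM for stellate cells, at most 43.4 CPM for Schwann cells, 3.86 and 1.48 CPM for acinar cells, 34.2 and 33.6 CPM for endothelial cells, 68.4 and 62.2 CPM for macrophages and 24.1 and 32.1 CPM for lymphocytes. Ductal markers were at 347 to 533 CPM in the low-insulin, glucagon-only and somatostatin-only sums and at 1146 and 1099 CPM in the pancreatic polypeptide-only sums. Markers of dividing cells reached 214 CPM in library 1 and 13.3 CPM in library 2, and 1 cell of library 1 held 354 of these UMIs.

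The regions upstream of the beta cell genes Ins1, Iapp and Ucn3 are shown as a description of sequence. Ins1 was used by the rule that chose the cells, and Iapp was not called against low-insulin cells. Of the 7 genes Ins1, Ins2, Mafa, Ucn3, G6pc2, Slc2a2 and Iapp (islet amyloid polypeptide, which is released with insulin), 5 had a promoter entry in RefSeq (GRCm38.p6), and Ins2 and Mafa had none. Each line below gives the 250 bases before the start of transcription, 5′ to 3′ on the strand of the gene. Capitals mark CATCTG or its reverse complement, the letters of an E-box to which the factor NeuroD1 is known to bind in insulin promoters.
Ins1, chr19:52264047-52264296, + strand: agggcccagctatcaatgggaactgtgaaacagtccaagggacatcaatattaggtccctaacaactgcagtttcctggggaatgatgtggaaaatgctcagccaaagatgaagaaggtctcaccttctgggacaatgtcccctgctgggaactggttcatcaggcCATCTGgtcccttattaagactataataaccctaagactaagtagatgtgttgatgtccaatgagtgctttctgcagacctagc
Iapp, chr6:142298175-142298424, + strand: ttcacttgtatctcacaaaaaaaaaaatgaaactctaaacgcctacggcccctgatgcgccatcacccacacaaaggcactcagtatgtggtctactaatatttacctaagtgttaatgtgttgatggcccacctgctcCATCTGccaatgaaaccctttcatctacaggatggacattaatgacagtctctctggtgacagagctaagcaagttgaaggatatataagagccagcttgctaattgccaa
Ucn3, chr13:3945350-3945599, − strand: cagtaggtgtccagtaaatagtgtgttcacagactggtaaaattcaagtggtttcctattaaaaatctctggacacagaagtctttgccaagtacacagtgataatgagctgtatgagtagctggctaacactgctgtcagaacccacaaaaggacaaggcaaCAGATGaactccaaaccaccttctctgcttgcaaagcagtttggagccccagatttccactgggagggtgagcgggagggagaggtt

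The match in the Ins1 window lay at −84 to −79 from the start, that of Iapp at −111 to −106 and that of Ucn3, on the opposite strand, at −87 to −82. CATCTG on either strand was found in 4 of the 5 genes with an entry, Ins1 of the rule among them. It was found in 16.3% of all 27025 genes with an entry (14.4% of all 32851 windows of that length). TAAT, the core letters of homeodomain sites such as those of Pdx1, occurred 3 times before Ins1, 5 times before Iapp and 2 times before Ucn3, and in 54.9% of all windows on either strand. A match of letters is a description of the sequence and does not show binding. Among the 7 genes with an entry that are named below as higher in high-insulin than in other-hormone cells, 1 held CATCTG, a share close to that of all genes.

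To ask how high-insulin cells differed from cells of the other hormones, the counts of each class were summed per library, and the high-insulin sums were compared with the mean of the glucagon-only, somatostatin-only and pancreatic polypeptide-only sums by edgeR's quasi-likelihood test over 13218 genes. Folds are log2 differences with their standard error (SE). Most beta cell markers and most genes of endoplasmic reticulum folding and lipid synthesis were higher in high-insulin cells, and most immediate early and heat shock genes were lower. At an adjusted p under 0.05, 2454 genes (18.6% of those tested) were higher and 1950 genes (14.8%) were lower. Against single classes, 34.9% of genes were called in either direction with glucagon-only cells, 20.7% with somatostatin-only cells and 30.3% with pancreatic polypeptide-only cells. These comparisons share the high-insulin sums. The median log2 difference over all genes was −0.01. When the hormone transcripts were kept in the library sizes, this median became −0.51, and the higher calls numbered 1007 against 5672 lower ones. That setting also left out the TMM scaling factors of the main fit (0.949 and 0.942 for the high-insulin sums). Its values combine both changes. Differences are therefore relative to the non-hormone transcriptome.

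Among the 34 listed beta cell markers other than insulin, 32 were in the tables and 29 passed the filter on low counts. Of these, 28 were higher in high-insulin cells and 0 lower, with a median log2 difference of 5.04, or 4.23 with genes that a comparison class lacked set to their floor. The list holds the markers by which such cells are known, so this count describes the cells and is no independent support. Mafa, which activates the insulin genes, had 1428 and 1406 CPM in high-insulin cells and no more than 3.54 CPM in any other-hormone sum. The pooled level was 714-fold higher (95% counting interval 452 to 1206). Ucn3, a peptide that signals to neighbouring delta cells, had 681 and 601 CPM against 19.8 CPM in the highest other-hormone sum (log2 difference 7.80 ± 0.24 SE). The 2 high-insulin sums lay far above all 6 others for both genes. G6pc2 had 2270.4 and 2126 CPM, against 24.0 CPM in the highest other-hormone sum (7.80 ± 0.16). Syt7, a calcium sensor of exocytosis, was the marker not called, with 457 and 469 CPM against 322 to 531 CPM.

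Several markers were close to absent from the other-hormone cells. Trpm5, a cation channel opened by calcium, had 335 and 337 CPM in high-insulin cells and 9 UMIs in all other-hormone cells together, a pooled ratio of 338-fold (178 to 742). Sytl4, or granuphilin, which docks insulin granules at the membrane, had 645 and 626 CPM and was 275-fold higher (179 to 444). Cox6a2, a tissue-restricted subunit of cytochrome c oxidase, had 172 and 189 CPM and was 117-fold higher (69.3 to 215), and Tmem215, a membrane protein, had 343 and 337 CPM and was 280-fold higher (156 to 563). Kcnj12, an inward rectifier potassium channel, and the gene model Gm49542 gave 0 UMIs in the other-hormone cells and were at least 105-fold and at least 146-fold higher, computed against a floor of 3 UMIs over the group. Of the 12 named genes with the largest differences, Cox6a2, Gad1, Trpm5, Gm44850, Gm49542 and Gm17767 overlap another annotated gene, and the strand used in counting is not given in the sources used here, so reads of the partner cannot be told apart. The same holds for Iapp, which lies opposite Slco1a5, and for Slc2a2, which overlaps 1700112D23Rik.

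Among genes of the secretory granule, Iapp, Pcsk1 and Scg3 were higher in high-insulin cells, and Pcsk2, Pam and Gnas were lower. Iapp had 51395 and 50676 CPM in high-insulin cells, 15053 and 15357 CPM in somatostatin-only cells, 4189.7 and 1586 CPM in pancreatic polypeptide-only cells and 633 and 489 CPM in glucagon-only cells (log2 difference 4.23 ± 0.17, adjusted p = 2.62e-16, edgeR's quasi-likelihood test). Among the other-hormone classes the somatostatin-only sums were the highest. Of 23 hormone processing and granule genes tested, 12 were higher and 7 lower, with a median of 0.32, and under scaling with the hormones kept 7 were higher and 11 lower, with a median of −0.17. Pcsk1, the convertase that makes the first cut in proinsulin, had 618 and 590.3 CPM against 4.2 and 2.5 CPM in glucagon-only cells, and the log2 difference from the other-hormone mean was 4.57 ± 0.12. Pcsk2, the second convertase, was lower, with 4877 and 4919.6 CPM against 10326 and 10301 CPM in glucagon-only cells. Slc30a8, the zinc transporter of the granule, had 1461 and 1374 CPM in high-insulin cells and 1270.3 and 1319 CPM in glucagon-only cells. It had at most 64.5 CPM in the somatostatin-only and pancreatic polypeptide-only sums. Gnas, the stimulatory G protein subunit, was lower in high-insulin cells, with 48.2 and 62.2 CPM against 274 to 1086 CPM (log2 difference −3.44 ± 0.13). It overlaps the antisense gene Nespas.

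**Figure D2:**
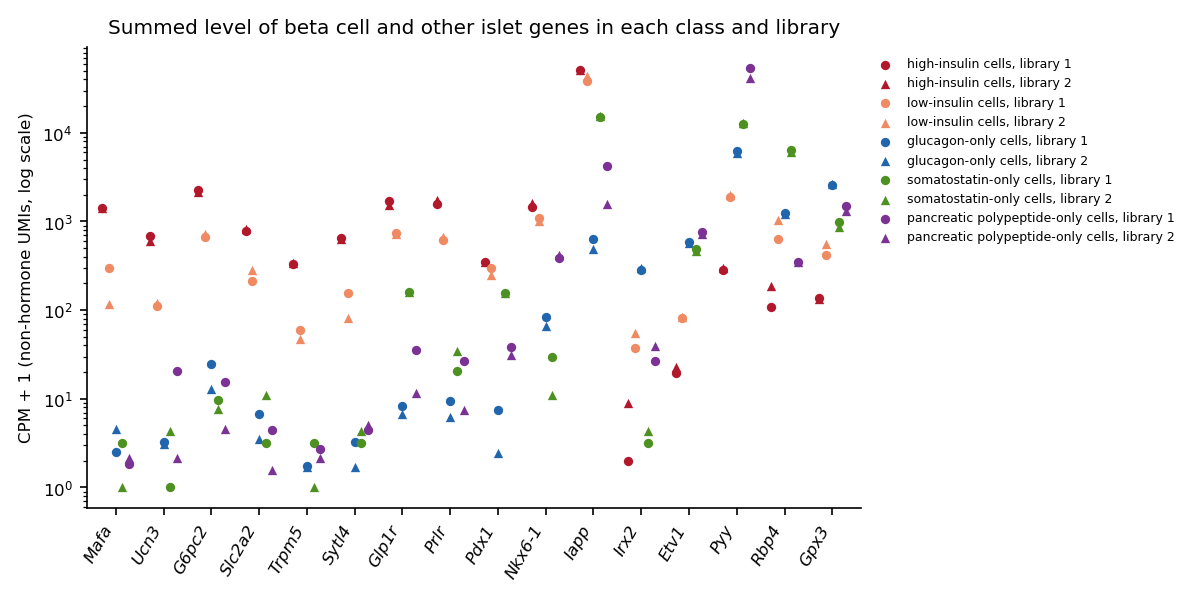
Level (CPM + 1, log axis) of 16 genes in the sum of each cell class, with circles for library 1 and triangles for library 2. For Mafa, Ucn3 and Trpm5 both high-insulin points lie above every other class, the low-insulin points lie between, and for Pyy the order is the opposite.

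The transcription factors of islet cells were divided. Of 34 tested, 12 were higher and 9 lower in high-insulin cells, with a median of −0.02, and with the hormones kept 8 were higher and 19 lower. Nkx6-1, required for beta cell identity, had 1475 and 1599 CPM against 10.1 to 418 CPM (log2 difference 4.26 ± 0.11). Pdx1, which activates insulin and acts in delta cells too, had 349.5 and 351 CPM, and somatostatin-only cells had 154 and 154 CPM. Mlxipl, a glucose-responsive factor, had 931 and 905 CPM and somatostatin-only cells 501 and 821 CPM, while glucagon-only cells had 36.9 and 30.1 CPM. Etv1, an ETS factor, was lower than in every other-hormone class, with 18.3 and 21.7 CPM against 469 to 762 CPM.

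Genes of glucose sensing went both ways, with Slc2a2 and Pcx higher in high-insulin cells and Kcnj11 and Abcc8 lower. Of 25 glucose sensing and triggering genes tested, 13 were higher and 7 lower, with a median of 0.37 that became −0.12 with the hormones kept (8 higher, 10 lower). Slc2a2 had 787 and 817 CPM against at most 10.1 CPM (log2 difference 7.96 ± 0.18). Pcx, pyruvate carboxylase, had 96.4 and 113 CPM against at most 18.8 CPM. The ATP-sensitive potassium channel subunits were lower in high-insulin cells, Kcnj11 by 0.45 ± 0.11 and Abcc8 by 0.64 ± 0.09 on the log2 scale, and the acid-sensitive potassium channel gene Kcnk3 fell to 2.9 and 6.4 CPM against 37.4 to 261 CPM.

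Of 30 listed receptors, 25 passed the filter, of which 13 were higher and 4 lower, with a median of 0.92. For 6 of the 25 a compared class had 0 UMIs. Without the filter 14 of 29 were higher and 3 lower. Glp1r, the incretin receptor for glucagon-like peptide 1, had 1693 and 1539 CPM, against 160.4 and 158 CPM in somatostatin-only cells. It had at most 34.4 CPM in the glucagon-only and pancreatic polypeptide-only sums. Prlr, the prolactin receptor, had 1555 and 1726 CPM against at most 33.5 CPM, and Gcgr, the glucagon receptor, had 109 and 120.5 CPM against at most 43.9 CPM. Gipr, the other incretin receptor, differed less (375 and 318 CPM against 65.9 to 126 CPM). Ffar4, a fatty acid receptor, and Oxtr, the oxytocin receptor, were lower, with 1.4 and 5.9 CPM and 2.9 and 3.5 CPM in high-insulin cells. Adra2a, through which noradrenaline inhibits insulin release, had 195 and 182 CPM and was at 40.2 CPM or less in the other-hormone sums. In low-insulin cells, Glp1r and Prlr were each detected in 100% and 91.7% of the cells of the respective libraries.

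Most genes of protein folding in the endoplasmic reticulum were higher in high-insulin cells than in other-hormone cells. Of 31 folding and unfolded protein response genes tested, 24 were higher and 1 lower, with a median of 0.76, and the counts were 16 higher and 5 lower with the hormones kept (median 0.27). Ero1lb, the oxidase that supplies disulphide bonds to proinsulin, had 2392 and 1980.4 CPM against 33.0 to 123 CPM (log2 difference 5.04 ± 0.13). Hspa5, or BiP, had 3667 and 3752 CPM against 1931 to 3369 CPM, a log2 difference of 0.63 ± 0.08. Dnajb11, a BiP partner, rose by 1.68 ± 0.14, Calr by 1.11 ± 0.08 and Atf6, a sensor of the unfolded protein response, by 1.09 ± 0.11. Prdx4, a peroxiredoxin of the endoplasmic reticulum, was the 1 gene that was lower (−1.85 ± 0.20). The sensors Ern1 and Eif2ak3 and the factor Xbp1 were not called, with log2 differences of −0.44 ± 0.18, −0.30 ± 0.22 and 0.13 ± 0.11. Against low-insulin cells, only 4 of the 31 genes were higher and 0 lower, with a median of 0.16.

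Most tested genes of lipid synthesis and of monoamine and GABA metabolism were higher than in other-hormone cells. Of 19 lipid synthesis genes tested, 14 were higher and 0 lower, with a median of 1.02 (0.52 with the hormones kept), Insig1, which restrains sterol synthesis, by 1.98 ± 0.19 and Acly, which makes acetyl-CoA in the cytosol, by 1.48 ± 0.09. For glycolysis and the citric acid cycle, 14 of 35 were higher and 1 lower. For nuclear genes of oxidative phosphorylation, 38 of 78 were higher and 3 lower, with medians of 0.17 and 0.29 for the last 2 groups. When the hormones were kept in the library sizes, those medians became −0.34 and −0.20, with 4 higher and 12 lower in the first group and 6 higher and 28 lower in the second. Of 14 listed monoamine and GABA genes, 13 were in the tables and 5 fell below the filter. Of the 8 tested, 7 were higher and 0 lower, and without the filter 7 of 12 were higher and 0 lower. A gene could pass the filter through the high-insulin sums alone, so this count is a description. Gad1, which makes GABA, had 86.8 and 71.6 CPM against at most 1.1 CPM, a pooled ratio of 144-fold (61.0 to 446), on chr2:70553072-70602014, where Gad1os overlaps it. Ddc, the decarboxylase of aromatic amino acids, had 735 and 826 CPM against 394 CPM or less. Exocytosis genes were 9 higher and 5 lower of 26, and 6 higher and 13 lower with the hormones kept. The metallothioneins Mt1 and Mt2 were higher by 3.35 ± 0.10 and 3.37 ± 0.15, within a list of 19 antioxidant genes of which 4 were higher and 6 lower, or 2 and 13 of 20 with the hormones kept. Gpx3, a secreted glutathione peroxidase, was lower, with 137 and 131 CPM against 875 to 2625 CPM. Against low-insulin cells, only 2 of the 19 lipid synthesis genes were higher and 0 lower, with a median of 0.04. For monoamine and GABA genes that contrast had 5 of 8 higher and 0 lower.

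**Figure D3:**
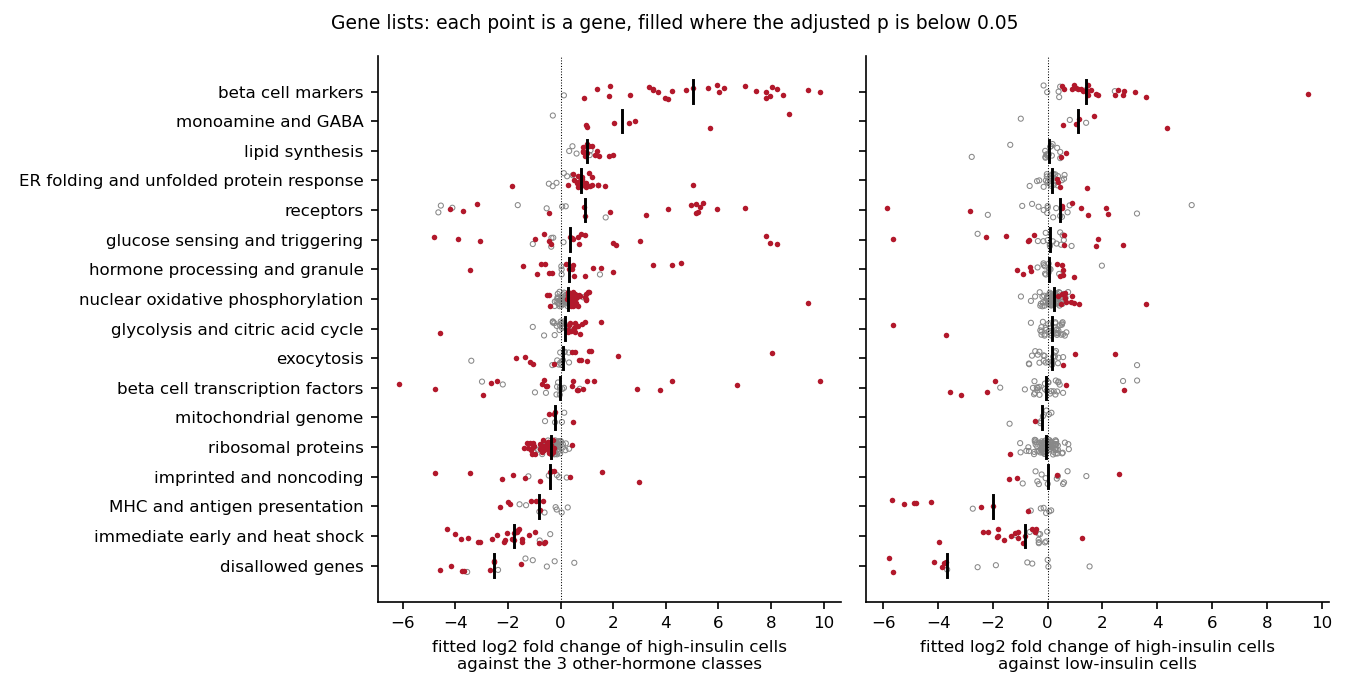
Fitted log2 difference of each gene of a list, against other-hormone cells on the left and low-insulin cells on the right. Points are genes, filled where the adjusted p was below 0.05, and bars are medians. The beta cell markers have the highest medians, 5.04 and 1.41, and the immediate early and heat shock genes have medians below 0 in both panels, −1.75 and −0.84.

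Immediate early and heat shock genes, which are induced within minutes by stimulation or stress, were lower in high-insulin cells for 25 of 27 tested, with 0 higher and a median of −1.75. With the hormones kept the count was 27 lower and 0 higher. Fos had 722 and 589.8 CPM against 1461 to 4138 CPM. Egr1 had 603 and 573.5 CPM against 1214 to 3390.3 CPM. The heat shock protein genes Hspa1a and Dnajb1 had log2 differences of −1.58 ± 0.10 and −2.04 ± 0.11, the first uncertain as a single gene because Hspa1b is a near-identical copy. Socs3, a feedback inhibitor of cytokine signalling, and Nr4a2, a nuclear receptor, were the genes not called, with log2 differences of −0.39 ± 0.30 and −0.79 ± 0.35.

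**Figure D4:**
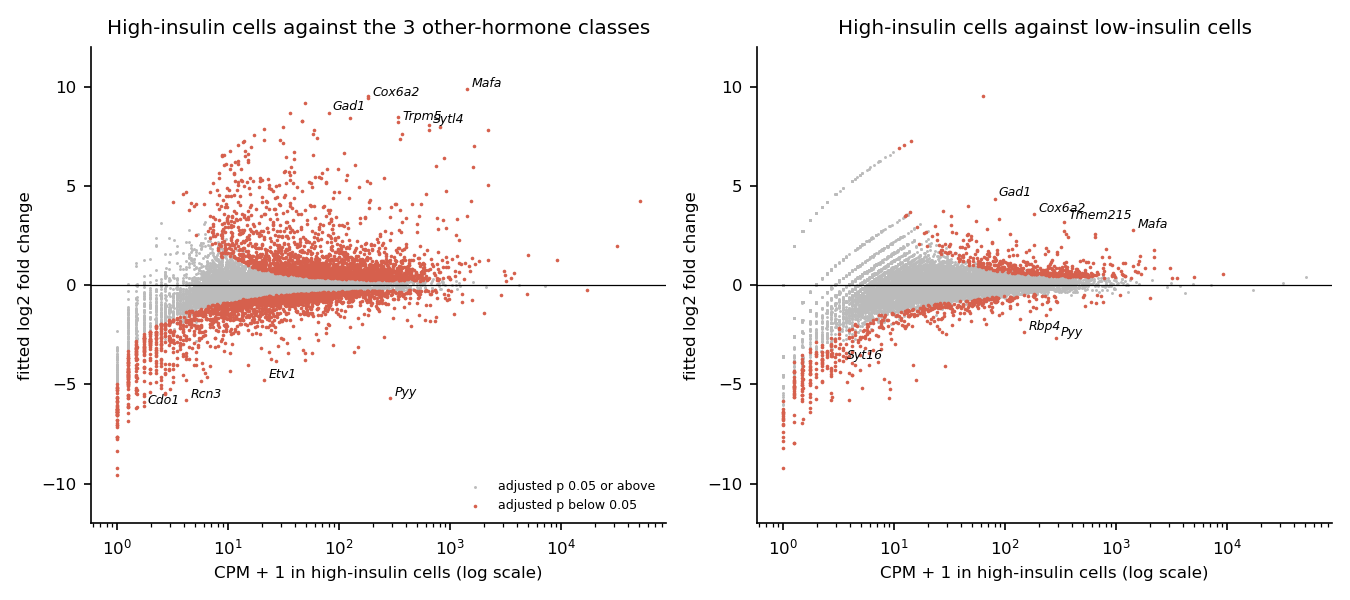
Fitted log2 difference of each tested gene (vertical axis) against its level in high-insulin cells (CPM + 1, log axis), against other-hormone cells on the left and low-insulin cells on the right, with genes called in red. On the left 2454 genes lie above and 1950 below, on the right 473 and 502, and the bands of points at low level are genes with few or no UMIs on 1 side.

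Genes that mature beta cells usually keep off, called disallowed genes, were near 0 in high-insulin cells. Of 30 listed, 15 passed the filter and 8 were lower, 0 higher. Because a gene passed the filter through the class where it was higher, the count is a description. It was 5 of 11 without cells rich in other cell types, 5 of 14 with an insulin minimum of 40%, and 1 of 3 with equal cells per sum. Hk1, a hexokinase with a high affinity for glucose, had 2 UMIs in all high-insulin cells and 54.9-fold more per non-hormone UMI in other-hormone cells (15.0 to 456). Rest, a repressor of neuronal genes, had 2 UMIs and 19.7-fold more (5.28 to 165). Ldha, lactate dehydrogenase, had 7 UMIs and was not called against other-hormone cells. The MHC list had 7 of 15 lower and 0 higher, and without cells rich in other cell types 4 lower and 1 higher (3 lower under DESeq2, 2 with equal cells). Of 84 ribosomal protein genes 39 were lower and 1 higher, a median of −0.37. The count was 6 lower and 0 higher of 67 with equal cells, and 23 lower and 6 higher of 81 with an insulin minimum of 40%. With the hormones kept it was 72 lower and 0 higher of 85. Their summed level averaged 14241 CPM in high-insulin, 25392 in glucagon-only, 16977 in somatostatin-only and 15897 CPM in pancreatic polypeptide-only cells. Low-insulin cells had 14504 CPM.

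The genes furthest below the other classes were Cdo1, Rcn3 and Pyy. Pyy, a peptide hormone related to pancreatic polypeptide, had 279 and 294 CPM in high-insulin cells, 1899.5 and 1999 CPM in low-insulin cells and 5981 to 53889 CPM elsewhere (log2 difference −5.66 ± 0.13). Cdo1, which breaks down cysteine, had 3 UMIs in all high-insulin cells against 474 in other-hormone cells, a pooled ratio of 71.4-fold lower (24.3 to 347). Rcn3, a calcium-binding chaperone of the secretory pathway, had 13 UMIs against 1859, a ratio of 64.6-fold (37.7 to 122). These genes were low in both libraries, and the Pyy level in high-insulin cells was 0.518% and 0.713% of that in pancreatic polypeptide-only cells.

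Low-insulin cells were compared with high-insulin cells by the same test. Most beta cell markers were lower in low-insulin cells, and Pyy and 16 of 27 immediate early and heat shock genes were higher there. MHC and disallowed genes were also called higher in low-insulin cells, but not once cells rich in markers of other cell types were left out. The contrast called fewer genes, 473 higher (3.58%) and 502 lower (3.80%) in high-insulin cells, with a median of 0.01 over all genes. The insulin share defined both classes. Within the high-insulin class the marker levels did not all rise with it. Depth also differed, with median totals of 23568 and 15732 UMIs in low-insulin cells. The low-insulin sums came from 31 and 24 cells.

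Of the 29 tested beta cell markers, 22 were higher in high-insulin cells and 0 lower, with a median of 1.41. Mafa had 1428 and 1406 CPM against 295 and 117 CPM in low-insulin cells (log2 difference 2.77 ± 0.19, adjusted p = 5.05e-10, edgeR's quasi-likelihood test). Ucn3 had 681 and 601 CPM against 112 and 119.9 CPM (2.58 ± 0.23), and Slc2a2 had 787 and 817 CPM against 214 and 286 CPM (1.82 ± 0.16). Trpm5, Sytl4 and Tmem215 were higher by 2.75 ± 0.19, 2.45 ± 0.18 and 3.21 ± 0.21. Iapp, by contrast, had 38323 and 43562 CPM in low-insulin cells and was not called (0.42 ± 0.22), and neither were Gipr (−0.02 ± 0.14), Pdx1 (0.44 ± 0.16) or Mlxipl (−0.40 ± 0.16). Under DESeq2 the number of beta cell markers called higher was 13. Gad1 had 325 UMIs in high-insulin cells and 4 in low-insulin cells, a ratio of 19.5 (7.55 to 72.1), and Npy, a neuropeptide, had 256 UMIs against 0, at least 20.5-fold higher. Most Npy UMIs came from cells with 40 to 50% insulin. Npy was not among the genes selected for the largest fold in this contrast, a choice that also required a minimum level, sums that did not overlap and UMIs spread over cells. Which of these requirements left Npy out is not reported here. Its count is therefore a description and not a trait of the whole class.

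Genes lower in high-insulin than in low-insulin cells included Syt16, a synaptotagmin, with 1.4 and 3.5 CPM against 36.2 and 42.8 CPM. Rbms3 had 3.9 and 6.9 CPM against 61.4 and 48.5 CPM, and Rbp4, the retinol carrier, had 107 and 187 CPM against 627 and 1045 CPM. Few of the 55 low-insulin cells carried much of these levels, since the 3 cells with most UMIs of a gene held 44.7% of those of Syt16, 33.9% of Rbms3, 26.2% of Rbp4 and 42.8% of Pyy. Of the immediate early and heat shock genes, 16 were lower and 1 higher, Npas4, which had 122 and 68.2 CPM against 29.9 and 65.7 CPM. Txnip, an inhibitor of thioredoxin that glucose induces, had 230.4 and 235 CPM against 731 and 654 CPM. Of 8 MHC genes called lower, Cd74 had 8.7 and 7.4 CPM against 277 and 665 CPM.

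Markers of other cell types moved with this contrast. In low-insulin cells endothelial markers summed to 721 CPM in library 1 and 14.3 CPM in library 2, lymphocyte markers to 567 and 74.2 CPM, and macrophage markers to 34.7 and 765 CPM, against 34.2 and 33.6, 24.1 and 32.1, and 68.4 and 62.2 CPM in high-insulin cells. A set of 38 markers of these types and of stellate, ductal, acinar and Schwann cells was summed per cell. It took 0.1% or more of the non-hormone UMIs in 4 and 1 low-insulin cells and in 1 and 1 high-insulin cells. Without such cells, an alternative chosen after seeing the data, 826 genes were called, the MHC list had 0 lower and 1 higher, and the disallowed genes had 0 and 0. Beta cell markers then had 19 higher and 0 lower (median 1.21), and immediate early and heat shock genes had 0 higher and 15 lower (median −0.57). The part of those cells in the other differences was not tested. Ly6a and Ldha, which differed most among the disallowed genes, were high in 1 low-insulin library, with 189 against 0 and 162 against 14.3 CPM.

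Within the high-insulin class, the expression of many genes varied with the insulin share of the cell. A higher share went with fewer UMIs outside the hormones (Spearman rho −0.44 over 151 cells in library 1 and −0.56 over 166 cells in library 2), with fewer genes after thinning (−0.54 and −0.64) and with a smaller mitochondrial share (−0.64 and −0.61). The share that chose the cells has the non-hormone UMIs in its denominator, so a negative value is built into the first of these. The cells also share a library and differ in depth, so all values are descriptions. Of 890 genes at 200 CPM or more, 697 had the same sign of correlation in both libraries. The largest positive values were those of Rplp1, a ribosomal stalk protein (0.48 and 0.50), Scg3, a granule protein (0.49 and 0.46), and Rrbp1, which anchors ribosomes on the endoplasmic reticulum (0.45 and 0.56). Hspa5 and G6pc2 had values near 0, of 0.06 and 0.00 and of −0.03 and 0.09. Of the other defining markers, Mafa rose (0.16 and 0.23), Ucn3 rose (0.33 and 0.25) and Slc2a2 fell (−0.09 and −0.29). Among the genes that fell were mt-Co1, a mitochondrially encoded oxidase subunit (−0.63 and −0.61), mt-Nd4 (−0.58 and −0.59) and Vegfa, the endothelial growth factor (−0.41 and −0.42).

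The levels of the same cells, grouped by the same insulin share, restate these relations in CPM. From 30 to 40%, 40 to 50% and 50% or more, Rrbp1 had 1634, 2311 and 3296 CPM in library 1 and 1727, 2356 and 3949 CPM in library 2. Mitochondrial transcripts fell over the same steps, from 8438 to 4906 and 1928 CPM in library 1 and from 8489 to 5409 and 2741 CPM in library 2. Mafa, by comparison, had 1383, 1524 and 1348 CPM in library 1 and 1165, 1578 and 1601 CPM in library 2. Ucn3 had 572, 792 and 924 CPM in library 1 and 503, 633 and 769 CPM in library 2. Below the threshold, at 20 to 30%, with 22 and 19 cells, Mafa had 403 and 148 CPM, and Ucn3 had 161 and 144 CPM. Pyy was 256 and 305 CPM at 30 to 40% and 624 and 1999.6 CPM at 20 to 30%. Mafa thus differed more between the groups on each side of 30% than among those above it, while Rrbp1 rose over the groups above it. The groups were cut on the share that chose the cells, and those below 30% are low-insulin cells. These differences are therefore descriptions and do not show a step at the threshold.

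**Figure D5:**
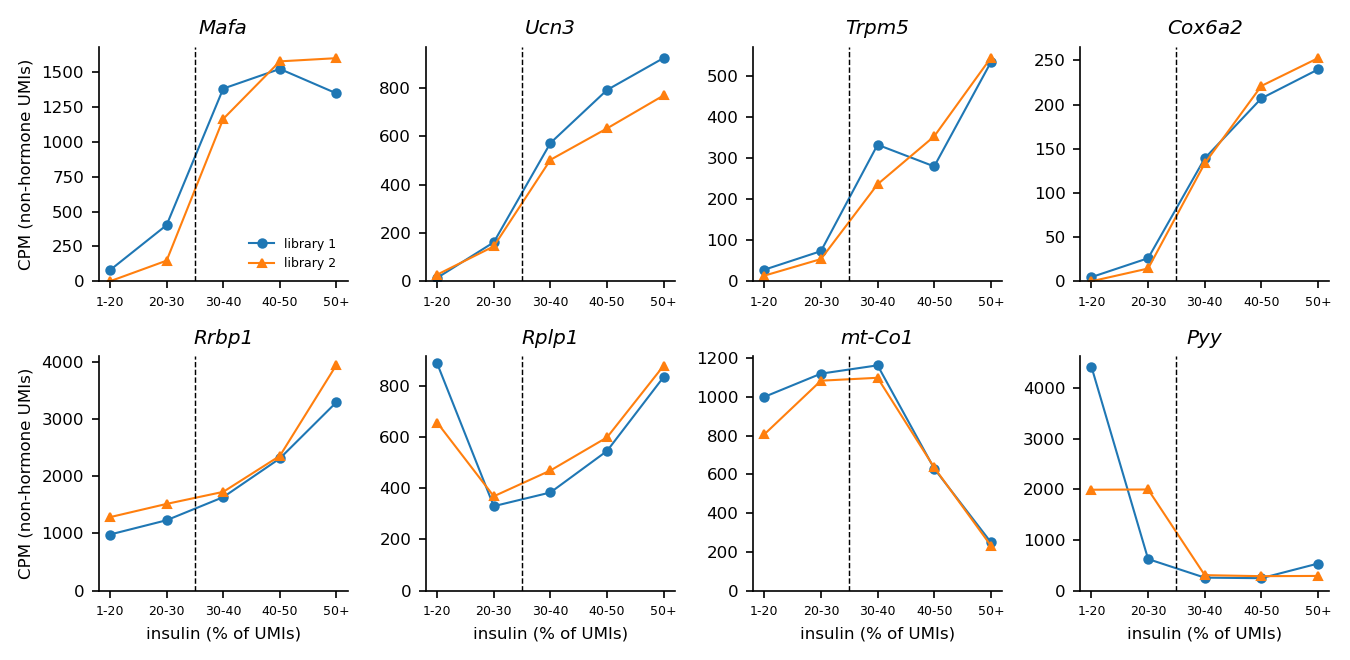
Level (CPM) of 8 genes in cells grouped by insulin share (percent of UMIs), with 1 line per library and the 30% threshold dashed. The groups from 1 to 20% hold 9 and 5 cells. Mafa is at 1165 CPM or more in all groups at 30% or above and at 403 CPM or less below, while Rrbp1 rises to 3296 and 3949 CPM in the highest group.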

How the data were processed

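RNA of islet cells was measured in 2 libraries. The authors deposited 1 table of raw counts per library, UMIs per gene and cell barcode, made with Cytonaut from reads aligned to exons of GRCm38 with Ensembl genes. UMI-tools selected barcodes by depth and Seurat is named in the processing notes. No further cell filter was applied here.

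The rule given in the report put cells into 5 classes. Their counts were summed per library (298300 to 2823605 non-hormone UMIs), giving 10 sums, with the 5 hormone genes left out. A gene-wise model with class as its factor was fitted to all sums with edgeR 4.0.16 in R 4.3.3 (TMM, filterByExpr, glmQLFTest, Benjamini-Hochberg, threshold 0.05, 5 residual degrees of freedom). It was also run on counts simulated with a common spread for all genes, and the outcome is not reported here. Python 3.11.15 and scanpy 1.11.5 (Scrublet) were used for cells. Pooled ratios carry exact counting intervals. Markers of other cell types comprised 38 genes.

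Members and gene lists were chosen with earlier results of these data known. Named genes were those of the lists, the 20 with the highest CPM, the 12 with the largest fold per direction and contrast (at least 30 CPM, sums not overlapping, at most 50% of UMIs from 3 cells) and the 8 with the largest and smallest correlation with insulin share. GENCODE M21 gave coordinates.

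Alternatives were DESeq2 1.42.0, no filter, a replicate block, hormones kept (without TMM), equal cells per sum, other insulin limits, doublets removed and, chosen after seeing the data, cells rich in other cell types or in cycling transcripts removed. Some items are not reported here.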

Additional observations from a re-analysis of the deposited data

How the results depend on the processing

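The share of high-insulin cells was 23.2% with a minimum of 25% insulin, 18.1% with 35% and 12.9% with 40%, and it ran from 20.5% to 22.2% when 1 library was left out. The median number of genes per high-insulin cell was 1042 at 1500 UMIs and 3953 without thinning, and ran from 1792 to 1794 when 1 library was left out. The number of genes called against other-hormone cells, 4404, became 6679 with the hormones kept in the library sizes and 1442 with 23 cells in every sum. Against low-insulin cells, 975 became 3238 with the hormones kept, 552 under DESeq2 and 199 with equal cells. Against glucagon-only cells, 4618 became 3077 under DESeq2 and 1407 with equal cells. Against somatostatin-only cells, 2734 became 6143 with the hormones kept and 1145 with equal cells, and against pancreatic polypeptide-only cells 4001 became 1303 with equal cells. Kept hormones split the calls into 106 higher and 3132 lower against low-insulin cells. With fewer cells the sums held fewer UMIs and fewer genes passed the filter. The cause of the other changes was not tested. With a replicate block the counts were 4289 and 879, and other settings left them within 1.5 times. Library numbers did not pair the sums (correlations of their deviations from −0.07 to 0.07 over 6678 genes). With 1 library no residual degrees of freedom remained, so no test was made. Of 478 alternative values for named genes, 473 kept direction and call, and 5 lost the call with equal cells (Gm43872, Prss23, Cpeb2, Pcp4l1 and Slc4a4). Of 310 alternative counts of gene lists, 258 stayed within 1.5 times.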

Other observations

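Of the 20 genes with the highest level in high-insulin cells, several were not of beta cells alone. Malat1, a nuclear noncoding RNA, had 17465 and 16626 CPM in high-insulin cells and 15692 to 31115 CPM in the other-hormone sums. Meg3, an imprinted noncoding RNA, had 6885 and 7507 CPM and was not called (log2 difference −0.06 ± 0.11). Chga, the granule protein chromogranin A, was higher, with 33110.2 and 30166 CPM against 5213 to 14293 CPM. Resp18, an endocrine secretory protein, was lower, with 2072 and 1957 CPM against 4068 to 7391 CPM. Ccnd2, the cyclin that beta cells use, had 3063 and 3029 CPM, close to the 3072 and 3090.0 CPM of glucagon-only cells. It lay above the 1341 to 1793.5 CPM of the somatostatin-only and pancreatic polypeptide-only sums. Neat1, another nuclear noncoding RNA, had 616 and 535 CPM against 101 to 391 CPM. Of 17 imprinted and noncoding genes tested against other-hormone cells, 3 were higher and 9 lower. The imprinted gene Nnat had 134 and 83.0 CPM in high-insulin cells, where both somatostatin-only sums were above it and all other sums were at 22.1 CPM or less. It overlaps Blcap on the opposite strand.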
